A study of Mus musculus with 6 samples.

Results

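The enzymes of the mevalonate pathway from acetyl-CoA to farnesyl diphosphate, geranylgeranyl diphosphate and squalene were followed in cultured mouse germline stem cells. The 9 genes, Acat2, Hmgcs1, Mvk, Pmvk, Mvd, Idi1, Fdps, Ggps1 and Fdft1, were chosen by symbol, and each matched 1 of the 32285 rows of the count table. Germline stem cells are the culture form of spermatogonial stem cells. All libraries came from the line labelled DBA-GFP GS cell, of genotype WT. The control libraries (3) were from cells in complete medium, and the pyruvate libraries (3) from cells in a medium named for 8 mM pyruvate. The labels give no other component of either medium, no culture time and no animal age. Nor do they state that each library had a culture of its own, so a p-value here reflects the spread among these samples alone, which could be technical.

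The mevalonate pathway condenses acetyl-CoA units into 3-hydroxy-3-methylglutaryl-CoA, from which mevalonate is made, and converts mevalonate by phosphorylation and decarboxylation into the isoprene unit isopentenyl diphosphate. Isoprene units are joined into farnesyl diphosphate, at which the pathway branches to squalene and the sterols, to geranylgeranyl diphosphate for protein prenylation, and to dolichol and ubiquinone. Transcription of most of these enzymes is driven by the sterol-sensing factor SREBP-2, which acts at many promoters together with NF-Y, a factor that binds the CCAAT box, and with Sp1, which binds the GC box. In the testis the sterol and prenyl products serve membranes and signalling proteins of germ cells.

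Promoter sequence is shown for 3 of the enzymes: Hmgcs1, at the entry of the pathway, Mvk, the enzyme with the highest fold change, and Mvd, with the next highest. The sequences are those of RefSeq on GRCm38.p6, and windows matched 7 of the 9 symbols. They were read 5′ to 3′ on the strand of the gene and end at the base before the RefSeq start site. Capitals mark the CCAAT box (CCAAT, or ATTGG on the other strand), the GC box (GGGCGG or CCGCCC) and a sterol element core (TCACNCCAC). The Hmgcs1 window is chr13:119690101-119690350, the Mvk window chr5:114444061-114444268 and the Mvd window, on the minus strand, chr8:122443423-122443672.
Hmgcs1: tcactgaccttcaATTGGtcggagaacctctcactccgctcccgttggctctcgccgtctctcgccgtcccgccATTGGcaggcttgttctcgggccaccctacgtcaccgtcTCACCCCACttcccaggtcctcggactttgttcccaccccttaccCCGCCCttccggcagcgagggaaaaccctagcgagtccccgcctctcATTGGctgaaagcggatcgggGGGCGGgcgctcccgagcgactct
Mvk: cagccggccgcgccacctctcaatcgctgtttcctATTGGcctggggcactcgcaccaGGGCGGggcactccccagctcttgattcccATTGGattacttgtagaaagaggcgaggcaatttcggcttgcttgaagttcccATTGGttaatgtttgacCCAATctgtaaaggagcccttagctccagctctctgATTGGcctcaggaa
Mvd: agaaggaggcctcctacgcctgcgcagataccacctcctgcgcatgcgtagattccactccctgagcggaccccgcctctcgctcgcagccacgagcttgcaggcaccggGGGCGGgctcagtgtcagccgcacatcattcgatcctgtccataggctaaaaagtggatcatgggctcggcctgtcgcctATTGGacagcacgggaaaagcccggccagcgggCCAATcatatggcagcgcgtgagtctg

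Both strands were searched for the 3 motifs and for the E-box CACGTG in the 250 bases before each start site, and no motif overlapped another in the windows of these enzymes. Mvk had 5 CCAAT boxes, a number reached in 0.213% of 32851 mouse promoter windows of the same length, while at least 1 was present in 33.9%. The Mvk window printed holds the 208 bases between the GENCODE starts of Mvk and Mmab, an enzyme of cobalamin metabolism transcribed the other way. The same 5 boxes therefore lie before both genes. Hmgcs1 had 3 CCAAT boxes, 2 GC boxes and the sterol element, which 1.05% of all windows held. Mvd had 2 CCAAT boxes and 1 GC box, and neither Mvk nor Mvd had the sterol element. Of the enzymes whose windows are not printed, Idi1 had 2 CCAAT boxes and 1 GC box, Ggps1 had 3 CCAAT boxes, Acat2 had 1 GC box, and Pmvk had 1 CCAAT box at 1 of its 2 start sites. The E-box was found in 0 of these windows and in 6.02% of all windows. Such matches describe letters and are not evidence of binding.

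Library totals ran from 20918312 to 26413080 counts, and 14912 genes passed the filter on low counts. All 9 enzymes passed it, each with at least 195 counts in every library. Levels are counts scaled to a fixed library total after TMM normalization, written CPM. Of 16 germ cell and spermatogonial markers, 16 were tested, with a summed level of 4110 to 4720 CPM in control and 3940 to 4310 in pyruvate medium. The sum hides single markers whose groups did not overlap, as was so for 22.5% of all genes tested in either direction. By edgeR's test at adjusted p under 0.05, 0 of the 16 passed in either direction. Bcl6b (189 to 306 CPM against 356 to 369 in control) and Lhx1 (82.6 to 152 against 155 to 178) were lower in every pyruvate library. Nanos2 (8.0 to 11.6 CPM against 5.7 to 7.08) and Nanos3 (27.7 to 39.2 against 16.5 to 25.5) were higher. Steroid-producing Leydig cells use the same pathway, and 6 of their 7 markers had a mean under 1 CPM, with 4 (Hsd3b1, Hsd3b6, Insl3 and Lhcgr) at 0 counts. Markers of differentiating and meiotic germ cells (7) summed to 782 to 865 CPM in control and 614 to 764 in pyruvate medium. Sohlh2, the most abundant of them, was lower in every pyruvate library (307 to 319 CPM against 369 to 377), Sohlh1 was higher (54.5 to 93.9 against 44.5 to 54.3), and the other 5 overlapped between groups. Fibroblast markers summed to 86.3 to 102 CPM in control and 88.6 to 121 in pyruvate medium. Col1a1, the most abundant of them, was higher in every pyruvate library (57.6 to 82 CPM against 48.5 to 53). Thy1 was lower in every one (6.48 to 6.91 against 9.15 to 11.9), as was Pdgfra, and the other fibroblast markers overlapped between groups. Of the 8 fibroblast markers tested, 0 passed edgeR's test at adjusted p under 0.05. Sertoli markers summed to 22.9 to 28.6 CPM in all 6 libraries, with Fshr at 0, immune markers to 4.83 to 7.40, with Adgre1 at 0, and endothelial markers to 28.3 to 36.6. The endothelial marker Vwf was lower in every pyruvate library (8.19 to 8.59 CPM against 10.1 to 10.3). The part of these cells in the results was not tested. Control replicate 2 stood furthest out on the first principal component, at 36.5. Pyruvate replicate 1 lay apart on the other side, at -27.2, and the rest lay at -4.64 to 0.81. The fold changes of the enzymes are also given without control replicate 2. With any other single library left out, 0 of the 9 enzymes passed edgeR's test.

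The question put to these enzymes was how their transcripts differ between complete medium and pyruvate medium. Mvk rose 2.25-fold in pyruvate medium. Mvd, Fdps and Fdft1 had means 1.74, 1.51 and 1.46 times those of control, and Acat2, Hmgcs1, Pmvk and Idi1 had means 1.25 to 1.29 times as high, while Ggps1 had a mean 0.917 times as high. Over all genes, 1 of the 9 enzymes (Mvk) passed edgeR's quasi-likelihood test at adjusted p under 0.05 upward, against 0.0201% of all genes tested, and 0 passed downward (0.0536% of all genes passed in either direction). At an unadjusted p under 0.05 there were 6 of the 9 upward, against 7.94% of all genes. DESeq2 called 4 of the 9 upward, against 1.22% of all genes, and limma-voom called Mvk alone, against 0.0201%. In 6 of the 9 every pyruvate library lay above every control library, against 11.9% of all genes tested. Ggps1 was the other enzyme whose groups did not overlap, with pyruvate lower. In either direction 3352 of the 14912 genes lay apart (22.5%), 1769 of them upward. With control replicate 2 set aside, the pyruvate libraries lay above both remaining controls in 8 of the 9, against 20.9% of all genes. The fold change was above 0 in 8 of the 9 and in 48.1% of all genes, and its median on the log2 scale was 0.37 for the enzymes and -0.01 for all genes. In RNA from whole cultures, fewer cells of a type and less RNA per cell cannot be told apart.

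**Figure D1:**
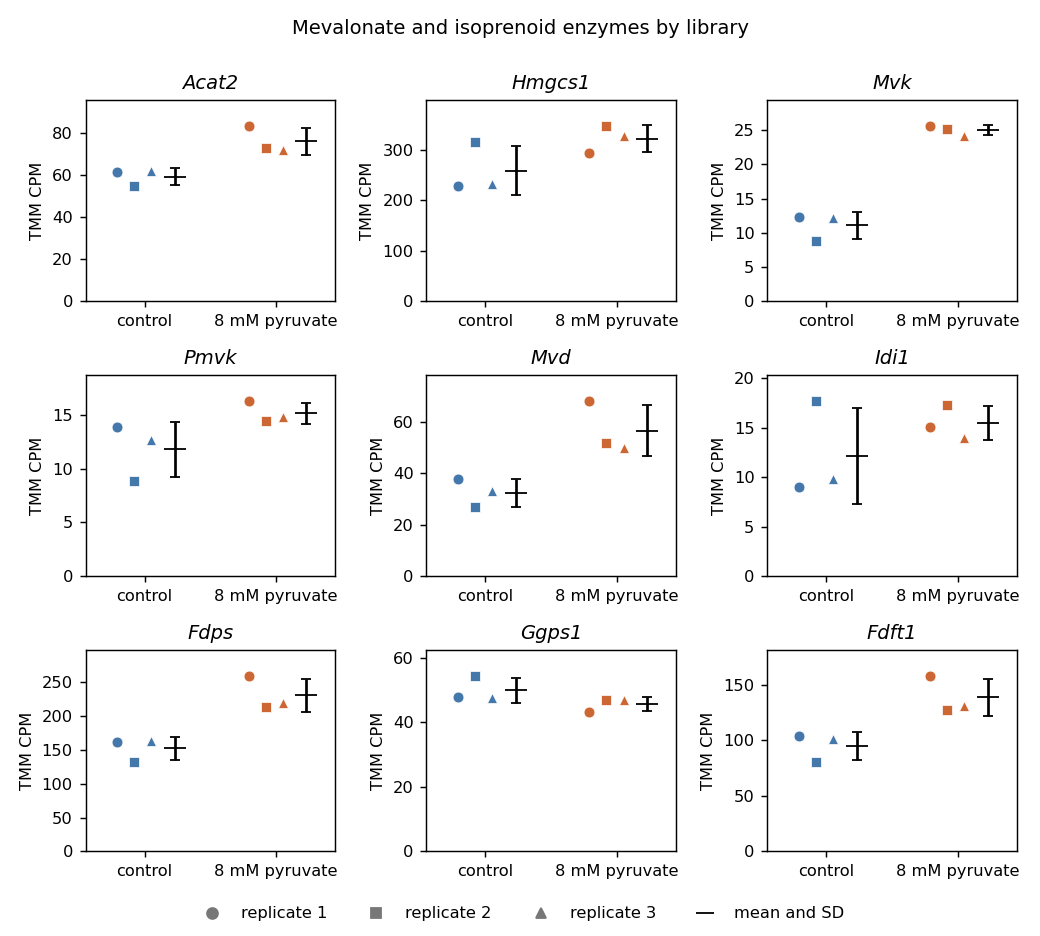
Level of each enzyme in TMM CPM (vertical axes, from 0) in the 3 control and 3 pyruvate libraries, with marker shape for the replicate and a bar for the mean and SD of each group. Mvk, Mvd, Fdps, Fdft1, Acat2 and Pmvk have all pyruvate libraries above all controls, and control replicate 2 (square) is the lowest control in these 6 and the highest in Hmgcs1, Idi1 and Ggps1.

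Acat2 (ENSMUSG00000023832, chromosome 17, 12942890 to 12960747) encodes the cytosolic thiolase that joins acetyl-CoA units into acetoacetyl-CoA. It stood at 61.4, 54.8 and 61.8 CPM in control replicates 1, 2 and 3 and at 83.4, 72.9 and 72.1 CPM in pyruvate replicates 1, 2 and 3. The groups did not overlap, and pyruvate replicate 1 was the highest. Pyruvate minus control was 0.36 on the log2 scale (SE 0.094, edgeR adjusted p = 0.168). Leaving out control replicate 2 gave 0.30 (adjusted p = 0.0648). Of the distinct 31-base words of its transcripts, 43.8% also occur in its paralog Acat3, so its count depends on how shared reads were treated. Acat3 itself had 4 to 8 counts per library. Tcp1, which shares 13.2% of the words of Acat2, had 14223 to 17707.

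Hmgcs1 (ENSMUSG00000093930, chromosome 13, 119690379 to 119708260), the cytosolic synthase of 3-hydroxy-3-methylglutaryl-CoA, was the most abundant of the 9 in CPM. Its control replicates 1, 2 and 3 stood at 228.5, 313.9 and 232.6 CPM and its pyruvate replicates at 292.2, 346.4 and 325.9 CPM. Control replicate 2 lay above pyruvate replicate 1, so the groups overlapped, whereas the other controls lay below all pyruvate libraries. The log2 fold change was 0.32 (SE 0.13, 95% interval 0.015 to 0.62, edgeR adjusted p = 0.327). Without control replicate 2 it was 0.48 and Hmgcs1 passed the test (adjusted p = 0.0110). Exons of Gm48342, on the opposite strand, cover 12.1% of its exon length, and 13.1% of its 31-base words occur in other genes.

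Mvk (ENSMUSG00000041939, chromosome 5, 114444269 to 114460591) encodes mevalonate kinase, which adds the first phosphate to mevalonate. Its counts were 269, 226 and 254 in control and 643, 651 and 533 in pyruvate libraries. As CPM these were 12.4, 8.88 and 12.1 in control and 25.6, 25.3 and 24.2 in pyruvate medium. The lowest pyruvate library was 1.96 times the highest control, and the pyruvate libraries spread less (CV 2.88%) than the controls (CV 17.5%). Mvk rose by a log2 fold change of 1.17 (SE 0.14, 95% interval 0.86 to 1.49, edgeR adjusted p = 0.0353), the 49th highest of the 14912 genes. Without control replicate 2, the lowest library, it was 1.03 (adjusted p = 0.00126). The call was lost when any other single library was left out, with log2 values of 1.16 to 1.26 and adjusted p of 0.0922 to 0.309. It was also lost under a filter of 5 CPM in 3 libraries (log2 1.18, adjusted p = 0.0558), under which 0.00918% of genes passed upward. No exon of Mvk overlaps that of another gene, and 2.18% of its 31-base words occur elsewhere.

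Mmab, which faces Mvk across the 208 bases printed above, stood at 18.4, 17.6 and 18.1 CPM in control and 23.4, 20.5 and 21.3 in pyruvate medium. The groups did not overlap, but the log2 difference was 0.27 (SE 0.094, edgeR adjusted p = 0.252). It was 0.25 (adjusted p = 0.167) with control replicate 2 left out. The difference between Mmab and Mvk was not tested.

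Pmvk (ENSMUSG00000027952, chromosome 3, 89454541 to 89469013) encodes phosphomevalonate kinase, the next step. It stood at 13.8, 8.88 and 12.6 CPM in control and 16.3, 14.4 and 14.8 in pyruvate medium, so the groups lay apart by a narrow margin. Its log2 fold change, 0.37 (SE 0.16, 95% interval -0.0068 to 0.74), did not pass (edgeR adjusted p = 0.353). With control replicate 2 left out it was 0.20 (adjusted p = 0.334). In control libraries the 2 kinases had nearly equal CPM, with log2 ratios of Mvk to Pmvk from -0.16 to 0.00, and both had 226 counts in control replicate 2. In pyruvate libraries the ratio was 0.66 to 0.81.

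Mvd (ENSMUSG00000006517, chromosome 8, 122433601 to 122443422), the decarboxylase that yields isopentenyl diphosphate, stood at 37.6, 26.8 and 32.9 CPM in control and 67.9, 51.8 and 49.7 in pyruvate medium. The groups did not overlap, and the lowest pyruvate library was 1.32 times the highest control. The log2 fold change was 0.80 (SE 0.16, 95% interval 0.44 to 1.16, edgeR adjusted p = 0.116). With control replicate 2 left out Mvd passed, at 0.68 (adjusted p = 0.0288). Idi1 (ENSMUSG00000058258, chromosome 13, 8885501 to 8892451), the isomerase that turns isopentenyl into dimethylallyl diphosphate, had the widest control spread of the 9 (CV 39.6%). Its control libraries stood at 8.97, 17.7 and 9.79 CPM and its pyruvate libraries at 15.1, 17.3 and 14.0. Control replicate 2 was the highest library of all, and the other controls lay below every pyruvate library. The log2 fold change over all libraries was 0.34 (SE 0.24, 95% interval -0.22 to 0.90, edgeR adjusted p = 0.560). With control replicate 2 left out Idi1 passed, at 0.72 (adjusted p = 0.0184). Of its 31-base words, 27.1% occur in other genes, with 18.4% in the gene model Gm13502, so its count is uncertain.

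Fdps (ENSMUSG00000059743, chromosome 3, 89093588 to 89101959) encodes farnesyl diphosphate synthase, whose product stands at the branch point. It stood at 161.1, 131.9 and 162.3 CPM in control and 258.0, 212.8 and 218.1 in pyruvate medium, with no overlap. Fdps had a log2 fold change of 0.60 (SE 0.11, 95% interval 0.34 to 0.85, edgeR adjusted p = 0.105). With control replicate 2 left out it passed, at 0.51 (adjusted p = 0.0142). Exons of the same-strand gene model Gm43738 cover 26.7% of its exon length, and 27.9% of its 31-base words occur in other genes. Its count is therefore uncertain, to an extent that these shares do not measure.

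Past the branch point the enzymes of the arms differed in their values. Fdft1 (ENSMUSG00000021273, chromosome 14, 63145150 to 63179578), the squalene synthase that commits farnesyl diphosphate to sterols, stood at 104.0, 80.9 and 101.2 CPM in control and 157.8, 127.0 and 131.3 in pyruvate medium. The groups did not overlap, and the log2 fold change was 0.54 (SE 0.12, 95% interval 0.26 to 0.82, edgeR adjusted p = 0.136). With control replicate 2 left out Fdft1 passed, at 0.44 (adjusted p = 0.0308). Exons of Ctsb, on the opposite strand, cover 18.3% of its exon length, and 31.9% of its 31-base words occur in other genes. Ggps1 (ENSMUSG00000021302, chromosome 13, 14050659 to 14063488), which makes geranylgeranyl diphosphate, stood at 47.8, 54.3 and 47.5 CPM in control and 43.2, 47.02 and 46.96 in pyruvate medium. Ggps1 had a log2 fold change of -0.12 (95% interval -0.33 to 0.083, edgeR adjusted p = 0.568). Leaving out control replicate 2 gave -0.06 (adjusted p = 0.698). Every control library lay above every pyruvate library, but the gap between the nearest libraries was smaller than the spread within either group. Of the 31-base words of Ggps1, 14.9% occur in other genes. The ratio of Fdft1 to Ggps1 in CPM per kb of exon was 2.43, 1.66 and 2.38 in control and 4.08, 3.02 and 3.12 in pyruvate libraries. The log2 difference of this ratio was 0.67 (SE 0.22). This pair was chosen after its values were seen. An exact permutation was run, but with 3 against 3 libraries it cannot give a p under 0.1, so it cannot decide the difference.

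Mvk was set against each of the other 8 enzymes by the log2 ratio of their CPM in each library. Mvk was chosen for this because it had the highest fold change of the 9, which fixes the sign of the mean differences. They are therefore given as a description. The exact permutation run on them cannot decide them either, for both reasons. The difference ran from 0.39 (SE 0.13) against Mvd to 1.31 (SE 0.23) against Ggps1, with 0.59 (SE 0.095) against Fdps and 0.64 (SE 0.094) against Fdft1. The sum of the 9 enzymes was 675.6, 698.0 and 672.8 CPM in control and 959.6, 914.9 and 897.0 CPM in pyruvate libraries.

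Levels of different genes were compared per kb of exon. In control, Hmgcs1 was highest at 56.2 ± 10.5 CPM per kb (SD, n = 3), followed by Fdps at 36.1 ± 4.10, Acat2 at 23.3 ± 1.56, Fdft1 at 22.6 ± 2.98, Mvd at 17.4 ± 2.90 and Ggps1 at 10.6 ± 0.81. Pmvk at 6.87 ± 1.51, Mvk at 4.16 ± 0.73 and Idi1 at 3.46 ± 1.37 were lowest. The ranges of Acat2 and Fdft1, of Fdft1 and Mvd, and of Mvk and Idi1 overlapped, and those of the other neighbours in this order did not. In pyruvate medium Hmgcs1 and Fdps remained at the top, at 70.0 ± 5.96 and 54.6 ± 5.88 CPM per kb. Fdft1, Mvd and Acat2 followed at 32.8 ± 3.94, 30.4 ± 5.36 and 29.9 ± 2.50, with overlapping ranges. Mvk, at 9.36 ± 0.27 CPM per kb, then lay in the ranges around Ggps1 (9.69 ± 0.46) and Pmvk (8.85 ± 0.57), so that Idi1 alone was clearly below it, at 4.41 ± 0.48. Lengths are those of the merged annotated exons, and transcripts in use may be shorter.

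**Figure D2:**
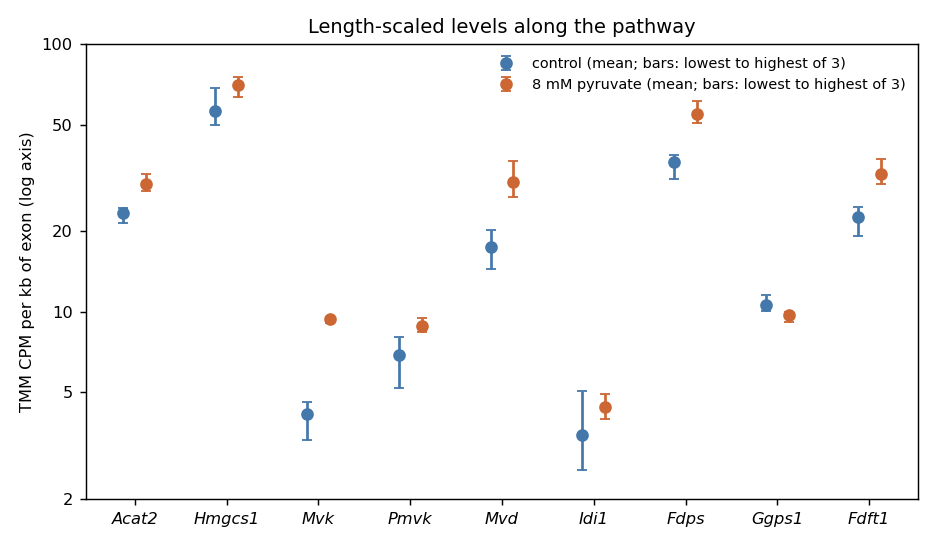
Level of each enzyme in TMM CPM per kb of exon (vertical log axis), in pathway order, with the mean of 3 libraries as a point and the lowest to highest library as a bar. Hmgcs1 and Fdps are highest in both groups, and Mvk moves from 4.16 in control to 9.36 in pyruvate medium, level with Ggps1 and Pmvk.

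Control replicate 2 departed from the other controls in opposite directions among the 9 enzymes, upward in those of lowest GC content and downward in the others. Hmgcs1, Idi1 and Ggps1, whose longest transcripts have a GC content of 43.1%, 41.9% and 40.1%, were higher there, by 0.45, 0.91 and 0.19 on the log2 scale. The other 6, with 49.6% to 59.0% GC, were lower there, from -0.17 for Acat2 to -0.57 for Pmvk. The same held over all genes tested. The tenth of lowest GC content had a median of 0.44 in control replicate 2 against the other controls and the tenth of highest GC content a median of -0.23. Pyruvate replicate 1 had a weaker trend of the opposite sign, from -0.22 to 0.14, and was the highest library for Acat2, Mvk, Pmvk, Mvd, Fdps and Fdft1. Without control replicate 2, the medians of pyruvate minus control over 10 bins of GC content lay between -0.0033 and 0.021, against -0.13 to 0.083 with it.

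**Figure D3:**
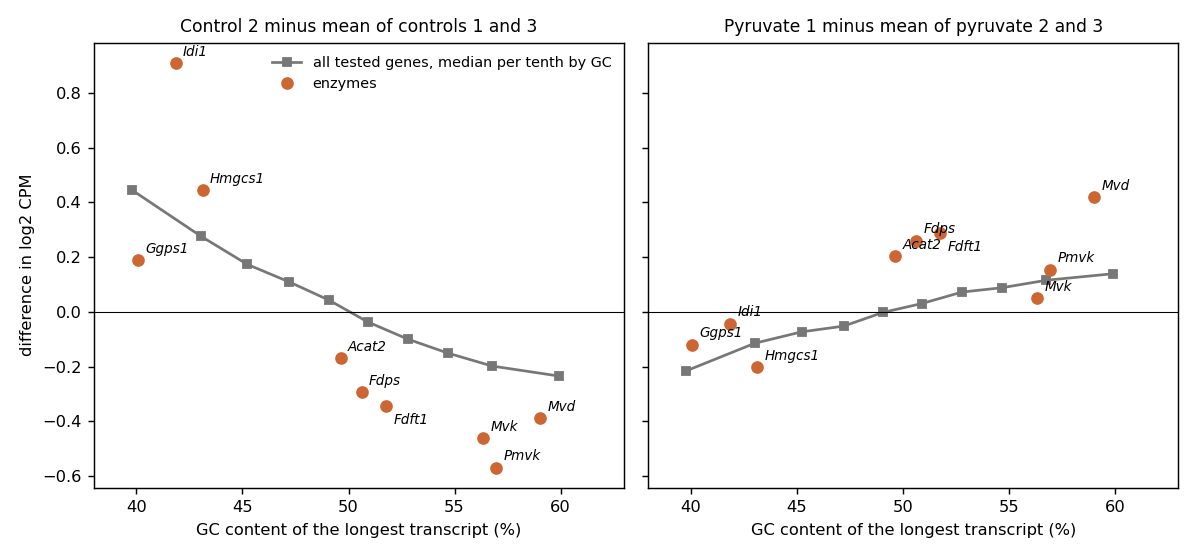
Difference in log2 CPM (vertical axes) between control replicate 2 and the mean of the other controls (left) and between pyruvate replicate 1 and the mean of the other pyruvate libraries (right), against the GC content in percent of the longest transcript. Squares joined by a line are medians of all tested genes in 10 bins by GC content, and named points are the 9 enzymes, with Idi1 at 0.91 and Pmvk at -0.57 on the left.

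With a trend in GC content and transcript length removed from each library, 6 of the 9 enzymes rose by edgeR's test, against 1.58% of all genes upward. These were Acat2 (log2 0.34, adjusted p = 0.0335), Hmgcs1 (0.39, adjusted p = 0.0214), Mvk (1.12, adjusted p = 0.00152), Mvd (0.73, adjusted p = 0.00701), Fdps (0.56, adjusted p = 0.0165) and Fdft1 (0.49, adjusted p = 0.0345). On that scale the groups lay apart upward in 7 of the 9, against 12.3% of all genes, with Hmgcs1 among them. Idi1 and Ggps1 overlapped between groups, and Ggps1 stood at -0.01. Control replicate 2 still departed from the other controls after this step, by 0.66 for Idi1, -0.31 for Fdft1 and -0.25 for Fdps. For Ggps1 the departure changed sign, from 0.19 to -0.24. Without control replicate 2, and with no trend removed, 6 of the 9 rose as well, against 2.33% of all genes upward. Of these, Hmgcs1, Mvk, Mvd, Fdps and Fdft1 also passed with the trend removed, while Idi1 passed only without the library and Acat2 only with the trend removed. Pmvk and Ggps1 passed in neither. In the no-trend fit the median log2 fold change of the 9 was 0.48, against 0.01 for all genes.

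**Figure D4:**
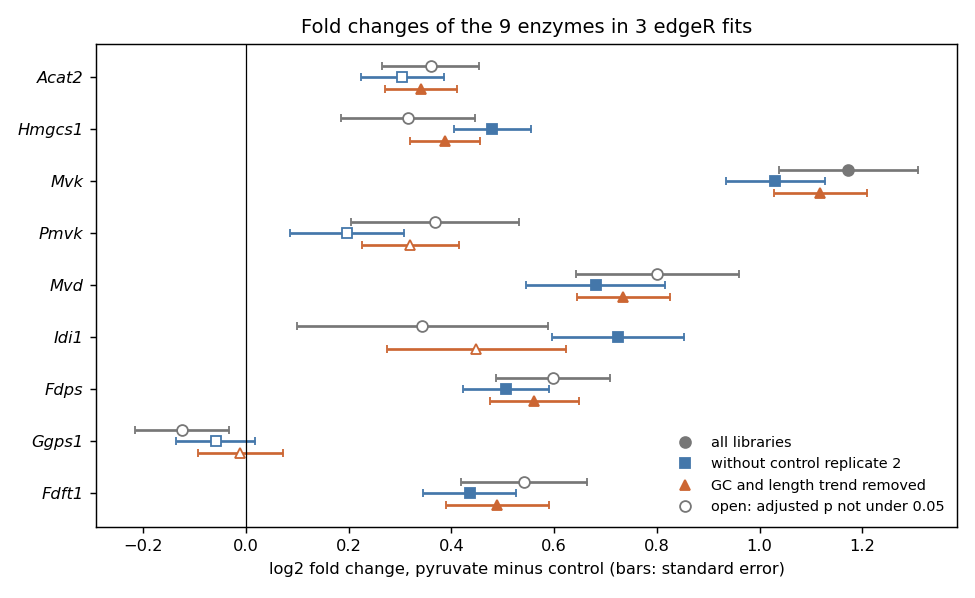
Log2 fold change of each enzyme, pyruvate minus control (horizontal axis, bars for the standard error), fitted by edgeR with all libraries, without control replicate 2, and with the GC and length trend removed. Filled symbols have an adjusted p under 0.05: Mvk alone with all libraries and 6 enzymes in each of the other fits, with Mvk between 1.03 and 1.17.

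The genes around these enzymes in the pathway were described from lists chosen with earlier results of these data known. Of 12 sterol ring enzymes, which act after squalene, 12 had a log2 fold change above 0, against 48.1% of all genes, with a median of 0.26. By edgeR over all genes 0 passed and 8 had an unadjusted p under 0.05, all upward, against 7.94% of all genes. DESeq2 called 4 upward, against 1.22% of all genes. Without control replicate 2 edgeR called 5 upward (Sqle, Lss, Cyp51, Msmo1 and Dhcr7), against 2.33%. Msmo1, which removes methyl groups from the sterol ring, stood at 39.2, 42.9 and 37.8 CPM in control and 62.96, 63.7 and 60.8 in pyruvate medium. Lss, which closes the rings, stood at 99.3, 97.3 and 100 CPM in control and 149.7, 135.5 and 145.2 CPM in pyruvate medium. In neither did the groups overlap, and their log2 fold changes were 0.64 and 0.54 (edgeR adjusted p = 0.0604 and 0.0613). Sqle, which oxidizes squalene, stood at a log2 fold change of 0.24 (adjusted p = 0.204 in edgeR).

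Of 14 genes of sterol sensing and uptake, 0 passed edgeR over all genes and 4 had an unadjusted p under 0.05 upward, against 7.94% of all genes. DESeq2 called 3 upward, against 1.22%. The fold change was above 0 in 10 of the 14, against 48.1% of all genes. The median log2 fold change was 0.06. Insig1, which retains the SREBP complex in the endoplasmic reticulum and is itself an SREBP target, stood at 198.1, 232.6 and 198.1 CPM in control and 303.8, 319.3 and 288.1 in pyruvate medium. Its groups did not overlap, and its log2 fold change was 0.53 (edgeR adjusted p = 0.0840). Srebf2, which encodes SREBP-2, stood at 0.33 (adjusted p = 0.134). Without control replicate 2 both Insig1 and Srebf2 passed, with adjusted p of 0.00180 and 0.0326 in edgeR.

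The users of farnesyl and geranylgeranyl diphosphate, which attach prenyl groups to proteins or build dolichol and ubiquinone, had a median log2 fold change of -0.02. Of 21 such genes, 10 lay above 0, near the 48.1% of all genes. With all libraries, without control replicate 2, with the trend removed, and by DESeq2 or limma-voom, 0 passed in either direction. By edgeR with all libraries 2 had an unadjusted p under 0.05 upward and 1 downward, a share near the 14.4% of all genes in either direction. The 2 of lowest p were Zmpste24, the protease that processes prelamin A, at -0.37 (SE 0.11, adjusted p = 0.200 in edgeR) and Dhdds, a subunit of the dolichol-forming prenyltransferase, at 0.23 (SE 0.083, adjusted p = 0.265).

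Upstream, all 6 genes that supply acetyl-CoA lay above 0, against 48.1% of all genes, with a median of 0.19. By edgeR 0 of them passed and 3 had an unadjusted p under 0.05 upward, against 7.94% of all genes, and by DESeq2 0 passed. Acss1, a mitochondrial acetyl-CoA synthetase, stood at 0.24 (adjusted p = 0.287 in edgeR) and Acly, which cleaves citrate in the cytosol, at 0.18 (adjusted p = 0.327). Acly passed without control replicate 2 (log2 0.24, adjusted p = 0.0449 in edgeR). Among paralogs of the 9 enzymes and genes of ketone metabolism, 7 of 9 were tested, and Acat3 and Idi2 were not. Idi2 had 0 counts in every library. By edgeR 0 of the 7 passed and 4 had an unadjusted p under 0.05 upward, against 7.94% of all genes. DESeq2 called 1, against 1.22% of all genes. This was Aacs, which makes acetoacetyl-CoA from acetoacetate in the cytosol, and edgeR gave it a log2 fold change of 0.41 (adjusted p = 0.116, and 0.0216 without control replicate 2).

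**Figure D5:**
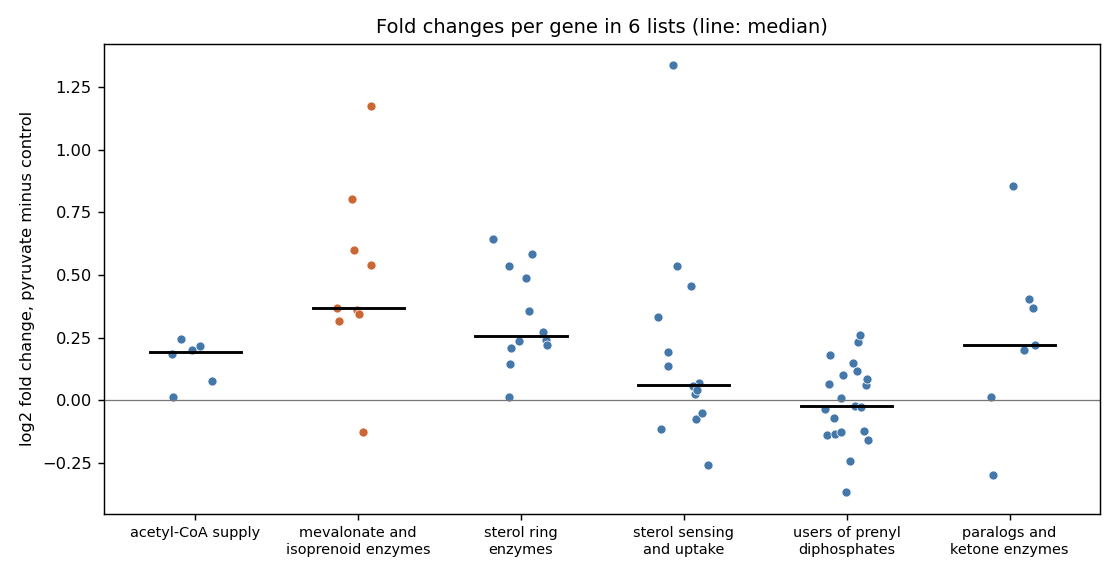
Log2 fold change of each tested gene, pyruvate minus control (vertical axis), in 6 lists of the pathway, with a line at each list's median. The medians are 0.37 for the mevalonate and isoprenoid enzymes, 0.26 for the sterol ring enzymes, 0.06 for sterol sensing and uptake and -0.02 for the users of prenyl diphosphates.

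The genes whose levels over the 6 libraries were most like the mean standardized log2 CPM of the 9 enzymes were sought among 10498 other genes of at least 5 CPM. They were Nadsyn1, Irf8, Mast3, Kctd21 and Col22a1, with Pearson r of 0.992 to 0.996 over 6 libraries that fall into 2 groups. None of the 5 passed edgeR's test with all libraries, with log2 fold changes of 0.26 to 0.63. Without control replicate 2, Irf8, Mast3, Kctd21 and Col22a1 passed it (adjusted p of 0.0125 to 0.0449), against 2.33% of all genes upward. Nadsyn1 did not (adjusted p = 0.162 in edgeR). The same was so by DESeq2 and with the GC and length trend removed. Col22a1 stood at 13.1, 12.5 and 13.3 CPM in control and 20.8, 19.4 and 19.8 in pyruvate medium (log2 0.63, adjusted p = 0.0692 in edgeR). The mean of the 9 enzymes hides the opposite departures of control replicate 2, where it stood at -0.61 against -0.55 and -0.62 in the other controls on that scale.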

How the data were processed

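Messenger RNA was sequenced in 3 control and 3 pyruvate libraries. The values deposited by the authors are unnormalized whole-number read counts per gene. Tools listed in the submitters' processing notes are STAR 2.7.11a, HTSeq 2.0.5, cutadapt 4.6 and bcl2fastq 2.20, with build mm10. For the annotation release, strand setting and any filter, nothing is given in the sources used here. The table has 3 more columns, which match no sample and were not used.

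The counts went into edgeR 4.0.16 (R 4.3.3) with filterByExpr (minimum count 10), TMM factors, the robust quasi-likelihood test without covariates, and Benjamini-Hochberg adjustment over 14912 genes at 0.05. Each standard error of an edgeR fold change is the log2 fold change over the root of F, and intervals are at 95%. Those of the log2 ratios between 2 enzymes come from the variance over the 3 libraries of each group. A count of 0 allows up to 3 counts, or 0.116 to 0.143 CPM, for counting error only. Replicate libraries differed by more than sampling noise (chi-square per gene 2.97 to 43.3). Positions, exon lengths and GC content came from GENCODE M21 (GRCm38), whose symbols matched 32158 of 32285 identifiers. The trend removal used splines with 5 degrees of freedom in GC content and log2 transcript length, on log2 CPM with a prior count of 2.

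Alternatives were other scalings and filters, DESeq2 1.42.0, limma-voom 3.58.1, the replicate block, the trend removal and each library left out. The main fit, DESeq2, limma-voom, the trend removal and the fit without control replicate 2 were also run on simulated data. Those data held no GC or length trend and no departing library, so they cannot show how the fits handle these. The 9 enzymes, the motifs and all lists were chosen with earlier results of these data known. The rule for naming takes the 9 enzymes, 6 related genes, each list's genes past the threshold or else its 2 of lowest p, and the 5 genes of most similar pattern. Others were chosen after their values were seen. Some genes under this rule are not reported here.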

Additional observations from a re-analysis of the deposited data

How the results depend on the processing

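Under the 15 alternatives, 8 of the 9 enzymes stayed above 0 and Ggps1 below it. With all libraries 8 genes changed over all genes and Mvk was the only 1 of the 9 enzymes. Genes changed numbered 14 with library totals, 15 with upper-quartile scaling, 83 without a filter on low counts, 317 by DESeq2 and 589 with the GC and length trend removed. Leaving out single libraries gave 0 to 625, the highest without control replicate 2. The count was 0 in edgeR when pyruvate replicate 2 was left out (1605 genes at an unadjusted p under 0.05) or pyruvate replicate 3 (1661 genes). Of the 9 enzymes, 3 changed without a filter (0.232% of all genes upward), 4 by DESeq2 and 6 with the trend removed. Under the filter of 5 CPM in edgeR 0 changed and 6 had an unadjusted p under 0.05, as did 1566 of 10888 genes. Leaving out single libraries gave 0 to 6: only the fit without control replicate 2 gave 6, and the other 5 gave 0. In these edgeR fits 5 to 7 of the 9 had an unadjusted p under 0.05, as did 1433 to 3273 of 15009 to 15281 genes tested. The 7 came without control replicate 2, where 3273 of 15042 genes had such a p. The median log2 fold change of the 9 was 0.39 to 0.50 over these fits, the highest without control replicate 1. Without pyruvate replicate 1, edgeR gave log2 fold changes of 0.65 for Mvd, 0.51 for Fdps and 0.44 for Fdft1 (adjusted p = 0.323, 0.318 and 0.378). The cause of these shifts was not tested.

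With the replicate number as a block, 265 genes and 4 of the 9 enzymes changed (1.01% of all genes upward). The labels do not state that equal numbers pair libraries. Deviations of same-numbered libraries correlated at 0.311, 0.311 and -0.0726, and those of different numbers at -0.385 to 0.213. Whether equal numbers mark pairs is not settled by these values, so the block is a description only. Among the 28 genes of the naming rule, 345 of 419 values kept direction and side of the threshold, 6 lost and 68 gained the call, and 0 reversed. In every library each of the 9 enzymes had at least 195 counts, against the floor of 3.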
